A study of Mus musculus with 2 samples.

Results

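The 9 genes followed here belong to 3 cytokine systems that link the gut epithelium to its lymphocytes, and they were read in single cells of the mouse proximal small intestine. They were taken as a list of 9 of the 32285 genes in the files. The ligand side held Il15, Il15ra, Il18 and Il7, and the receptor side held Il2rb, Il2rg, Il18r1, Il18rap and Il7r. All 9 were found by symbol in both libraries. The study concerned C57BL/6 mice with less of the M1 or M3 muscarinic acetylcholine receptor. Only its 2 control libraries hold single cells, named here control 1 (titled an M1 control) and control 2 (titled an M3 control). Both came from C57BL/6 mice with no treatment named, and the labels give neither age nor whether the libraries are separate animals. Villus-rich cells freed by 20 mM EDTA over 60 min and crypt-rich cells freed by the enzyme TrypLE over 10 min were pooled, so epithelium and the lymphocytes inside it were read together.

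IL-15 is held on the surface of the cell that makes it by its own alpha receptor, encoded by Il15ra. It is shown there to lymphocytes that carry the beta chain Il2rb and the common gamma chain Il2rg, which IL-2 receptors also use. IL-7 signals through Il7r with the same gamma chain, and Il7r also serves the receptor of the epithelial cytokine TSLP. IL-18 is stored by epithelial cells as an inactive precursor that caspase-1, in an inflammasome, can cleave. The active form binds Il18r1, and Il18rap joins to give a signalling receptor. Intraepithelial lymphocytes of the small intestine are known to include gamma-delta T cells, T cells with the CD8 alpha-alpha homodimer and conventional CD8 alpha-beta T cells, and many of them need IL-15 to persist.

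The promoters of Il18 and of both IL-18 receptor genes are shown because the results turn on where this ligand and its receptor were read. The receptor genes are neighbours: Il18r1 (chr1:40465552-40500854) and Il18rap (chr1:40515362-40551705) lie on the plus strand of GRCm38 with 14507 bases and no annotated gene between them. Il18 lies at chr9:50554827-50581840 on the plus strand by GENCODE, downstream of its RefSeq start, and 2 genes of the opposite strand, Bco2 and Tex12, overlap it. The 250 bases before each start, on the plus strand, are from RefSeq (GRCm38.p6), at chr9:50554450-50554699, chr1:40465302-40465551 and chr1:40515112-40515361. For Il18r1, which has 3 RefSeq starts in this table, the start that meets the GENCODE gene is shown. Capitals mark a match to any of 7 motifs searched on both strands.
Il18: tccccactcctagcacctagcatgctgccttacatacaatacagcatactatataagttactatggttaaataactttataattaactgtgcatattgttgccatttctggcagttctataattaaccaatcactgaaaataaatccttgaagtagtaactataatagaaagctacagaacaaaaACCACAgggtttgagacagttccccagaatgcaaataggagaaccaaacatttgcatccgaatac
Il18r1: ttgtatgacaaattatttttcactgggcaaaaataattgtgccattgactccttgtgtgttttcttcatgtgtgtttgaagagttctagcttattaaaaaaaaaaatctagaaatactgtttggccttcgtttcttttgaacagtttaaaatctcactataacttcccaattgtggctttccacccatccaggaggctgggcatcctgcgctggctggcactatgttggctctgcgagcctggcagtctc
Il18rap: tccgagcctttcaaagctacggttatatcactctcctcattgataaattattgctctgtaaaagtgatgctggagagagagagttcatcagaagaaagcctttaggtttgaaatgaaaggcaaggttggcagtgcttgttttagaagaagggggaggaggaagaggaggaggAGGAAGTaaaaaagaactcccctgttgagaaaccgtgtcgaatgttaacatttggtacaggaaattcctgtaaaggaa
The Il18 window held 1 RUNX match (TGTGGT, here on the minus strand), a motif that 14.0% of 32851 promoter windows of this length hold. The Il18rap window held 1 ETS match (AGGAAGT), found in 7.69% of windows. The Il18r1 window shown held none of the 7, and of its other 2 windows 1 held none and the other, at chr1:40465756-40466005, held 2 STAT matches. The 7 also included a STAT motif (TTCNNNGAA, 7.02%), an IRF motif (GAAA, NN and GAAA in a row, 2.98%), AP-1 (TGANTCA, 6.75%), NF-kB (GGGNNTTCC, 4.98%) and CDX (TTTATNG, 9.81%). These are letter matches and nothing more.

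The other genes, with GRCm38 positions from GENCODE M21, were Il15 (chr8:82331632-82403222), Il15ra (chr2:11705290-11734317), Il7 (chr3:7569994-7613760), Il2rb (chr15:78479256-78495271), Il2rg (chrX:101264378-101268255) and Il7r (chr15:9505788-9530176). Where genes overlap, how the counting used strand is not given in the sources used, so reads of Il18 and its opposite-strand partners could not be told apart on strand. Bco2 was read at 49.5 and 35.8 CPM (UMIs of the gene per 1000000 UMIs) in the enterocyte-like class (control 1 first here and below, then control 2), and Tex12 at 6.11 and 2.27 CPM.

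After filtering, 7115 cells with 44907552 UMIs (unique molecular identifiers, which count RNA molecules) were kept in control 1 and 4714 cells with 27149001 UMIs in control 2. The doublet caller marked 0.0702% of cells in control 1, so it did not work there, and 17 barcodes occurred in both libraries. Clusters, built without the 9 genes, were named from fixed markers as enterocyte-like (3378 and 2302 cells), progenitor-like (664 and 295), goblet-like (114 and 250), enteroendocrine-like (24 and 10) and T or NK cell-like (2245 and 1394). Paneth-like and tuft-like cells numbered 13 and 8 in control 2 and were not tested. A cluster of 330 and 223 cells had T cell genes, with Cd3e at 803 CPM over both libraries, but the mast cell genes Mcpt1, Mcpt2 and Kit were among its leading genes. The NK cell receptor genes Klrb1c, Klrk1 and Ncr1, and Tcf7, were among them too. This cluster stayed unnamed and outside the cells tested as lymphocytes, and its identity was not tested. Most enterocyte-like cells were poor in the nuclear RNA Malat1, and 2 clusters of them were rich in it. Median mitochondrial shares of UMIs were 10.8% and 14.2% in these 2 clusters and 0.145% to 0.194% in the Malat1-poor ones.

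Ligands and receptors fell on opposite sides for 7 of the 9 genes when the T or NK cell-like cells were set against all named epithelial classes. Il15 and Il18 were higher in epithelium, and Il2rb, Il2rg, Il7r, Il18r1 and Il18rap were higher in lymphocytes. The exceptions were Il15ra and Il7, the ligand-side genes that were also higher in lymphocytes. All 9 passed edgeR's quasi-likelihood test, against 75.5% of all 13114 genes tested in this comparison, so passing it does not set the 9 apart. The plot of levels by cell class gives every value.

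**Figure D1:**
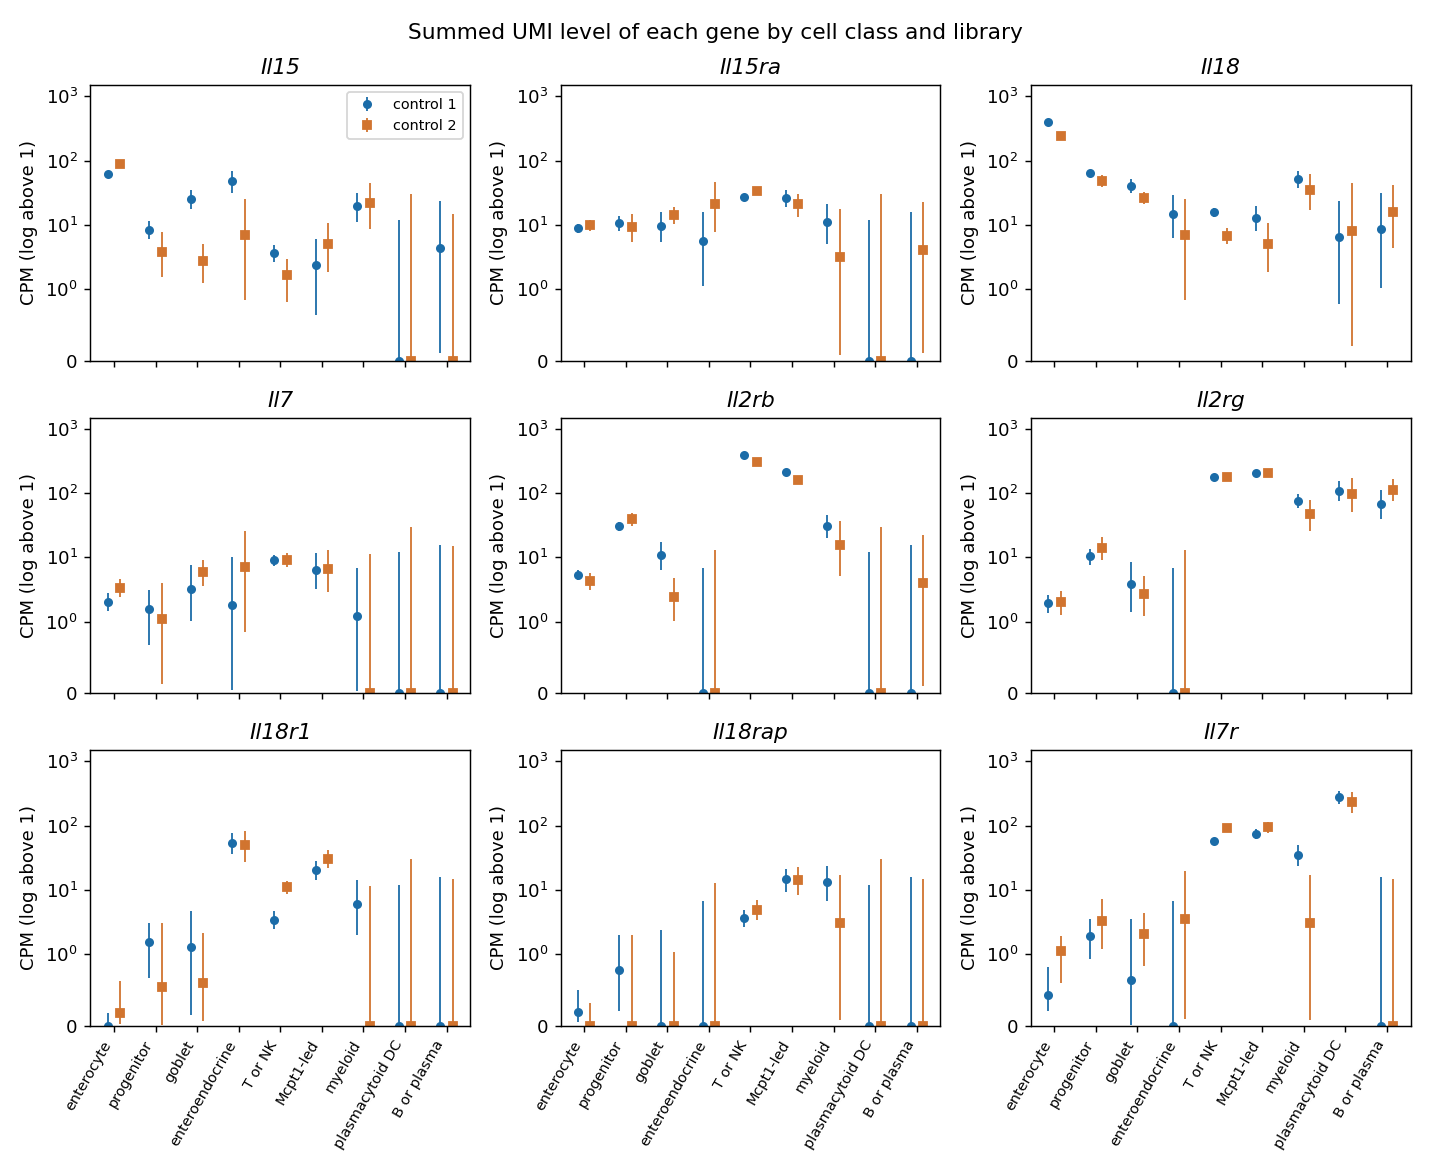
Level of each of the 9 genes (y axis, CPM, logarithmic above 1 and linear below) in 9 cell classes (x axis) of control 1 (circles) and control 2 (squares), with 95% Poisson intervals that cover counting error only. Il18 and Il15 are highest in enterocyte-like cells, Il2rb in T or NK cell-like cells, Il18r1 in enteroendocrine-like cells and Il7r in plasmacytoid dendritic cell-like cells.

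Il18 was read at 404 and 244 CPM in enterocyte-like cells and at 15.6 and 6.81 CPM in T or NK cell-like cells. Both epithelial values were far above both lymphocyte values. The log2 fold change for lymphocytes against all epithelium was -5.09 (SE 0.19, edgeR adjusted p = 6.85e-08). The lymphocyte value was 3.87% and 2.79% of the enterocyte value. Over the 12 enterocyte markers the same share ran from 1.82% to 4.96% in control 1 and from 1.72% to 2.97% in control 2, so Il18 in lymphocytes sat at the level at which enterocyte RNA in general was read there. At 2000 UMIs per cell, 51.5% and 36.5% of enterocyte-like cells held an Il18 UMI, while in T or NK cell-like clusters 2.39% and 0.840% did. The exact binomial 95% intervals were 49.3% to 53.7% and 33.9% to 39.1% for the enterocytes, and 1.75% to 3.17% and 0.385% to 1.59% for the lymphocytes, and they cover counting error only. Before thinning these shares were 57.2% and 43.3% against 5.43% and 2.94%, at median depths of 2400 and 2353 UMIs against 5208 and 4469.

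Il15 was read at 62.8 and 88.4 CPM in enterocyte-like cells and at 3.61 and 1.63 CPM in T or NK cell-like cells. The log2 fold change for lymphocytes was -4.92 (SE 0.29, edgeR adjusted p = 5.06e-07). Its share of the enterocyte level in lymphocytes was 5.75% in control 1, above the range of the 12 markers, and 1.84% in control 2, inside it.

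Il15ra went the other way. Its level was 27.3 and 33.5 CPM in T or NK cell-like cells and 8.82 and 9.85 CPM in enterocyte-like cells, with a log2 fold change over all epithelium of 0.94 (SE 0.17, edgeR adjusted p = 0.000887). Il7 was sparse everywhere, at 9.07 and 9.18 CPM in lymphocytes and 2.04 and 3.40 CPM in enterocyte-like cells. Its log2 fold change was 1.13 (SE 0.31, edgeR adjusted p = 0.0081), and it did not pass with DESeq2 (1.02, adjusted p = 0.184) or when every cell was thinned to 1000 UMIs (0.59, edgeR adjusted p = 0.253). Lymphocytes thus held more of the messages of Il15ra and Il7 per UMI than the epithelium did, for Il7 on thin counts.

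The chains that receive IL-15 were the strongest lymphocyte genes of the list by UMIs read. Il2rb reached 395 and 308 CPM in T or NK cell-like cells and 8.52 ± 1.74 CPM (SD, n = 2 libraries) over all epithelium. Its log2 fold change was 4.67 (SE 0.17). Il2rg was read at 178 and 181 CPM in lymphocytes and at 3.30 ± 0.14 CPM (SD, n = 2) in epithelium, with a log2 fold change of 5.06 (SE 0.17). Both chains were far above the epithelium in each library.

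Il7r, the alpha chain of the IL-7 receptor, was read at 58.7 and 92.7 CPM in T or NK cell-like cells and at 1.10 ± 0.55 CPM (SD, n = 2) in epithelium, a log2 fold change of 5.45 (SE 0.22). The IL-18 receptor chains were scarce. Il18rap, the accessory chain, had 44 and 33 UMIs in lymphocytes and 8 and 0 in epithelium. Il18r1, the binding chain, had 41 and 74 UMIs in lymphocytes and 39 and 19 in epithelium. Its log2 fold change of 1.64 (SE 0.48, edgeR adjusted p = 0.0116) was not past the threshold with DESeq2 (1.57, adjusted p = 0.108). The unscaled lymphocyte level in control 1 was 3.44 CPM. With totals scaled as for the edgeR test and 1 added to each level, the log2 ratio was 0.47 from control 1 alone. From control 2 alone it was 2.03. Epithelial Il18r1 came mostly from 1 rare cell class, described below.

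Of the 17 JAK-STAT and survival genes downstream of IL-7 and IL-15, 12 were higher in lymphocytes and 3 in epithelium (88.2% passed, against 75.5% of all genes; median log2 fold change 1.40, against 0.08 over all genes tested). The anti-apoptotic Bcl2 was read at 1413 ± 223 against 25.3 ± 3.51 CPM (SD, n = 2), and the gamma chain kinase Jak3 at 20.5 ± 6.63 against 1.37 ± 0.17 CPM. A list of other common gamma chain cytokines and receptors also held TSLP and IL-13 genes, which do not use that chain. Of its 8 testable genes, 6 were higher in lymphocytes. Among these were the IL-21 receptor Il21r (log2 fold change 4.78) and Crlf2, the TSLP receptor chain that pairs with Il7r (2.90). Il13ra1 (-5.33), a chain of the IL-13 receptor, was lower. In lymphocyte output and IL-12 partner genes, 11 of 13 were higher in lymphocytes, including Il12rb2 (5.91), which conveys IL-12, and Ifng (5.89), the interferon that IL-12 and IL-18 are known to raise.

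Of 20 testable genes for IL-18 processing and signalling, 11 were higher in epithelium and 5 in lymphocytes (median log2 fold change -1.27). The share that passed, 80.0%, was near the 75.5% of all genes. The inflammasome sensor genes Nlrp6 (-5.28), Naip1 (-5.57) and Nlrc4 (-4.09) were higher in epithelium, while the DNA sensor gene Aim2 was higher in lymphocytes (4.55). Of 12 testable cytokines made by gut epithelium, 8 were higher there, with Ccl20 (-6.07), Ccl28 (-5.68), Cx3cl1 (-5.32) and Cxcl16 (-5.03) farthest apart. Among 3 testable genes of the wider IL-1 family, Il33, an alarmin cytokine, was higher in epithelium (-4.84) and Il1rl2 and Il1rap in lymphocytes (5.26 and 1.07). Of the genes named in these lists, Il1rap did not pass with DESeq2, and the others passed under every alternative that could test them.

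Within the epithelium, Il18 and Il15 belonged to enterocyte-like cells. Il18 fell from 404 and 244 CPM there to 63.3 and 48.6 in progenitor-like, 40.5 and 26.6 in goblet-like, 14.7 and 7.03 in enteroendocrine-like and 2.47 and 0.963 in Paneth-like cells. The order of these classes was the same in both libraries, and no neighbours in it overlapped. Its lower end rests on few Il18 UMIs, 8 and 2 in enteroendocrine-like and 3 and 1 in Paneth-like cells. The enteroendocrine-like level was near the 15.6 and 6.81 CPM of T or NK cell-like cells. Whether enterocyte RNA in general was read at a like share in these epithelial classes was not tested. In tuft-like cells, which are not part of that order, Il18 had 22 and 0 UMIs in 18 and 8 cells. Against the other epithelial classes, the log2 fold change of Il18 was 3.58 (SE 0.20, edgeR adjusted p = 0.000405) in enterocyte-like, -2.67 (SE 0.22) in progenitor-like and -2.62 (SE 0.18) in goblet-like cells. These 3 comparisons share libraries and each serves in the reference of the others, so they are not independent.

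Il15 had 62.8 and 88.4 CPM in enterocyte-like, 8.38 and 3.82 in progenitor-like, 25.1 and 2.69 in goblet-like and 47.7 and 7.03 in enteroendocrine-like cells. The libraries thus disagreed by several times in goblet-like and enteroendocrine-like cells. Its log2 fold change was 3.82 (SE 0.52, edgeR adjusted p = 0.00229) in enterocyte-like and -3.60 (SE 0.29) in progenitor-like cells. In goblet-like cells it was -2.18 (SE 0.72, edgeR adjusted p = 0.0483), and not past the threshold without the library block (-2.02, adjusted p = 0.0703). Il15ra and Il7 passed in none of the enterocyte-like, progenitor-like and goblet-like comparisons. For enterocyte-like cells their log2 fold changes were 0.32 (95% interval -0.16 to 0.80) and 0.53 (-0.25 to 1.32). The share of all genes tested that passed was 54.3% for enterocyte-like, 57.6% for progenitor-like and 49.1% for goblet-like cells.

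The progenitor-like class was not uniform for Il18. In its less proliferative cluster, led by Aldh1b1, Rbp7 and Csrp2, Il18 stood at 186 and 141 CPM. In the cluster led by Hist1h1b, Olfm4 and Ube2c, which holds stem and cell cycle genes, it stood at 8.46 and 10.8 CPM. Il2rb and Il2rg were called higher in progenitor-like cells (log2 fold change 2.43 and 2.12). Il2rb there was 7.75% and 12.8% of its lymphocyte level and Il2rg 5.81% and 7.84%. The 14 T or NK cell markers were read there at 3.0% to 7.76% of their lymphocyte level in control 1 and 6.41% to 14.6% in control 2, a range that holds both receptor genes. The UMIs lay in the Olfm4 cluster (Il2rb at 41.7 and 53.8 CPM) more than in the other (5.68 and 3.76 CPM), and with every cell thinned to 1000 UMIs the Il2rb difference did not pass (1.05, edgeR adjusted p = 0.0895).

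Single genes that process IL-18 also differed between epithelial classes. Gsdmd, whose product forms the pore through which IL-18 can leave a cell, was higher in enterocyte-like cells (245 and 281 against 40.2 and 40.3 CPM, log2 fold change 3.17). In goblet-like cells Nlrp6 (7.07 and 1.49 against 137 and 93.5 CPM) and the inflammasome adaptor Pycard (54.6 and 50.2 against 569 and 414 CPM) were lower, and Naip6 (log2 fold change 2.75) and the signalling inhibitor Irak3 (5.04) were higher. Of the 20 testable genes of that list, 6 were higher and 3 lower in enterocyte-like cells, 3 and 13 in progenitor-like cells, and 11 and 6 in goblet-like cells. The share of the list that passed was below the 54.3% of all genes in enterocyte-like cells, and was 80.0% in progenitor-like cells, against 57.6% of all genes, and 85.0% in goblet-like cells, against 49.1%.

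Enteroendocrine-like cells, the hormone-making cells of the epithelium, stood apart as the epithelial class with Il18r1. They held 29 of the 39 epithelial Il18r1 UMIs in control 1 and 14 of 19 in control 2, while making up 24 of 4214 and 10 of 2878 epithelial cells. The level was 53.2 and 49.2 CPM, and 0.313 ± 0.0465 CPM (SD, n = 2) in the other epithelial classes. These UMIs came from 10 of 24 and 4 of 10 cells, at most 9 and 10 UMIs in a cell. The class fell under 20 cells in control 2 and was compared only after its values were seen, so the log2 fold change of 6.65 (SE 0.70) is given as a description, with no p. In that added comparison 38.0% of all genes passed edgeR's test. No Il18rap UMI was read in these cells in either library, which allows up to 5.51 and 10.5 CPM (3 UMIs of the class total).

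The 14 T or NK cell markers summed to 167 and 165 CPM in the same cells, 0.335% and 0.424% of their lymphocyte sum, and Trac was at 0 in both libraries. Il2rb and Il2rg were also at 0. Il1rap, the accessory chain of the IL-1 and IL-33 receptors, was read in enteroendocrine-like cells at 58.7 and 77.3 against 5.51 and 3.48 CPM in the other epithelial classes (log2 fold change 3.24, SE 0.47, also a description). It was read in 11 and 4 of these cells, and 5 and 2 of them also held Il18r1. The depth of the class was high, with median totals of 19912 and 32292 UMIs per cell, and at 2000 UMIs per cell only 1 cell of each library still held an Il18r1 UMI. Of the 20 testable IL-18 processing and signalling genes 7 were lower here and 0 higher, a share of 35.0% against the 38.0% of all genes. Among the lower ones, Nlrp6 was at 3.67 and 3.51 CPM, Pycard at 27.5 and 3.51 and Casp1, the protease that activates IL-18, at 20.2 and 17.6.

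Il18 and Il15 ran in opposite directions along the inferred villus axis. Enterocyte-like cells were placed by 9 lower-villus landmark genes (such as Reg1, Reg3b and Lypd8) and 8 upper-villus ones (such as Ada, Nt5e and Klf4), and cut into 5 equal bins within each library. Of the lower landmarks, Gsdmc2 and Gsdmc4 were nearly absent. From the lowest to the highest bin, Il18 read 575, 481, 355, 271 and 205 CPM in control 1 and 401, 381, 249, 128 and 68.4 CPM in control 2. It fell at each step in both libraries. Il15 read 24.4, 31.4, 62.5, 99.7 and 174 CPM in control 1 and 21.7, 42.9, 56.1, 85.1 and 221 CPM in control 2. It rose at each step in both libraries.

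Highest against lowest bin, the log2 fold change of Il18 was -1.93 (SE 0.30, edgeR adjusted p = 1.21e-09) and that of Il15 was 3.16 (SE 0.30, edgeR adjusted p = 3.06e-23), in a comparison where 48.0% of genes passed. Il15ra did not pass (-0.68, 95% interval -1.56 to 0.20), and reversed to 0.25 without Apoa4 among the landmarks. The Il18 call depended on the Reg antimicrobial genes among the lower landmarks: without them its log2 fold change was -0.57 (SE 0.30, edgeR adjusted p = 0.166). Without the library block it was -1.80 (adjusted p = 0.0645). Il15 passed under all 13 alternatives that were tested, with log2 fold changes from 1.52 to 3.28, the lowest in Malat1-poor cells alone.

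**Figure D2:**
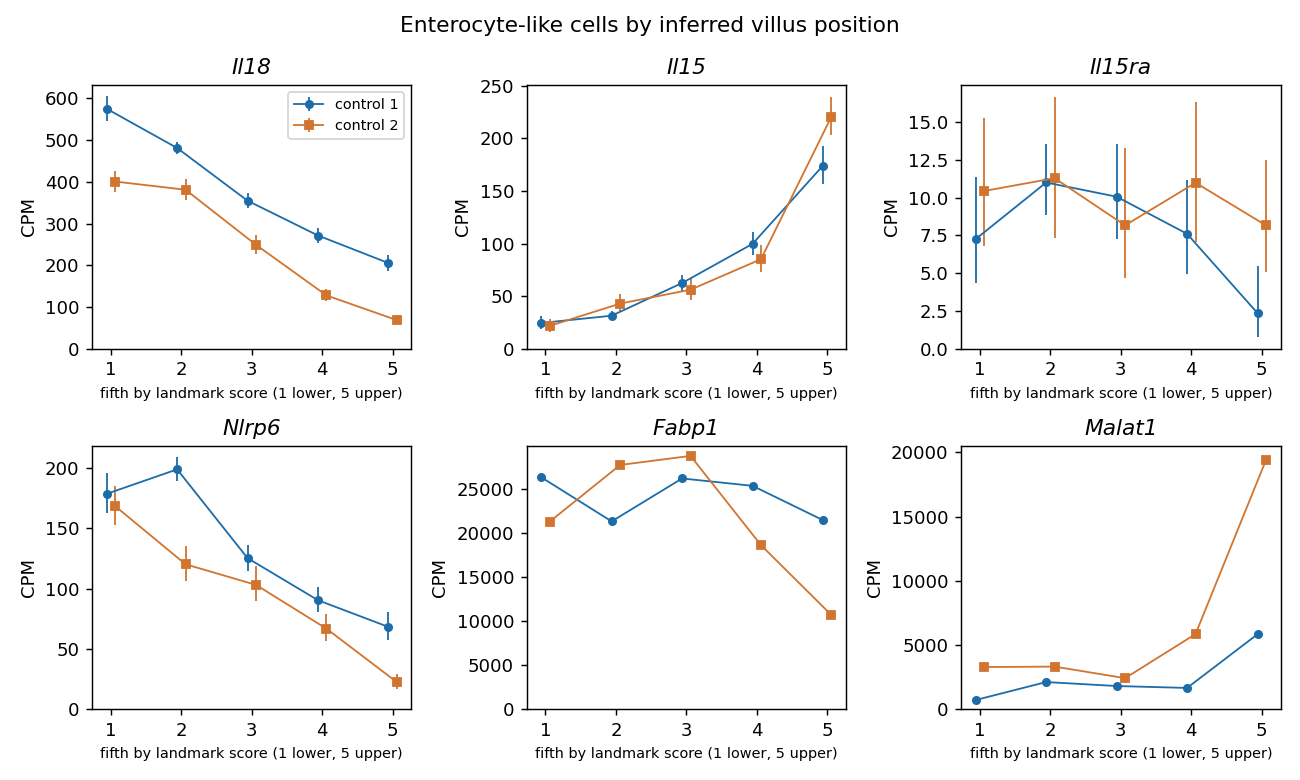
Level (y axes, CPM, from 0) of Il18, Il15, Il15ra, Nlrp6, Fabp1 and Malat1 in enterocyte-like cells of control 1 (circles) and control 2 (squares), by bin of the landmark score (x axes, 1 lower villus to 5 upper villus), with 95% Poisson intervals. Il18 falls from 575 and 401 CPM to 205 and 68.4 CPM while Il15 rises from 24.4 and 21.7 to 174 and 221 CPM.

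**Figure D3:**
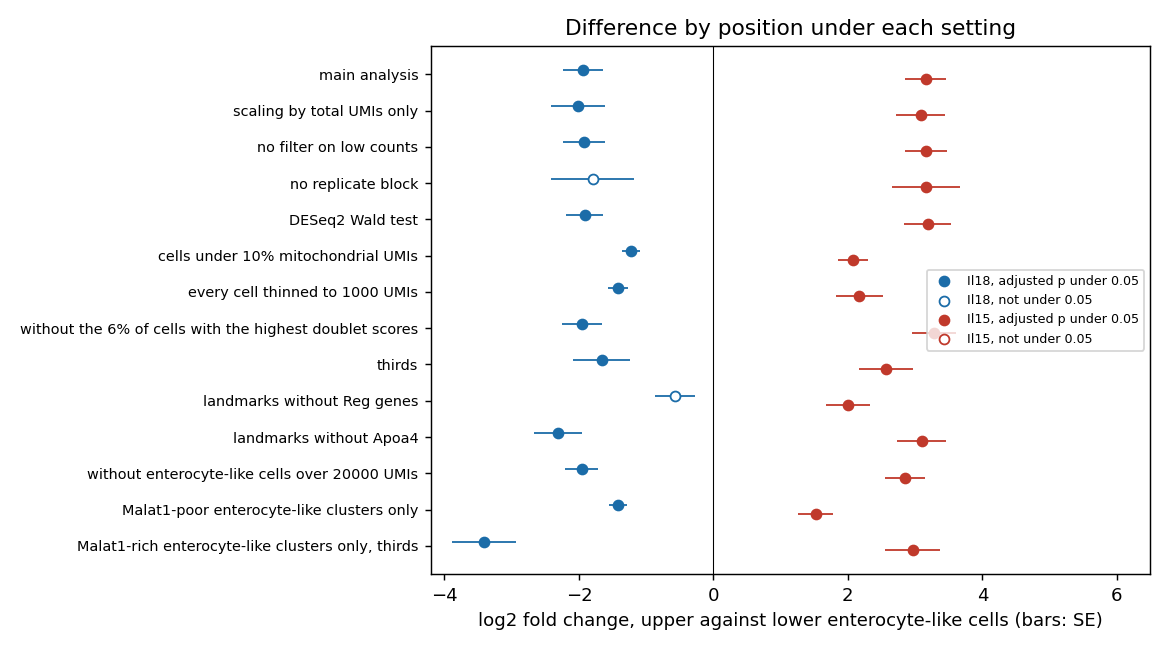
Log2 fold change of Il18 (blue) and Il15 (red) between upper and lower enterocyte-like cells (x axis) in the main analysis and under 13 alternatives (y axis), bars giving the SE. Filled points have an edgeR or DESeq2 adjusted p under 0.05; the open points are Il18 without the library block (-1.80) and without Reg landmarks (-0.57), and all points of each gene lie on 1 side of 0.

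Malat1 moved with position too, from 734 and 3297 CPM in the lowest bin to 5848 and 19394 CPM in the highest, and the share of cells from Malat1-rich clusters went from 2.91% and 4.86% to 9.49% and 22.5%. Within Malat1-poor cells the log2 fold change of Il18 was -1.42 (SE 0.13) and that of Il15 1.52 (SE 0.26). Within Malat1-rich cells, cut into 3 bins, they were -3.42 (SE 0.48) and 2.96 (SE 0.41). The abundant enterocyte gene Fabp1 went from 26337 to 21466 CPM in control 1 and from 21295 to 10701 CPM in control 2, a smaller relative step than that of Il18.

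At the ends of their range over enterocyte-like clusters, Il18 and Il15 were also opposed. Landmark genes other than Ccl25 were not left out of the clustering, so the clusters give no landmark-free check of position. Il18 was highest in the enterocyte-like cluster led by Tstd1, Gsta1 and Gstm3, at 802 and 676 CPM, where Il15 was at 18.4 and 17.5 CPM. The leading genes of this cluster include no landmark, and its villus position was not tested. In the Malat1-rich cluster led by the upper-villus landmarks Clca4a and Ada, Il15 was at 366 and 303 CPM and Il18 at 31.6 and 13.0 CPM. These 2 clusters mark the ends of the range among enterocyte-like clusters for both genes in both libraries. They also differed in Malat1 (270 and 25818 CPM over both libraries) and in the median mitochondrial share of UMIs (0.145% and 14.2%). How far that difference bears on Il18 and Il15 was not tested.

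The inflammasome adaptor gene Pycard and 1 sensor gene, Nlrp6, went with Il18, while other sensor genes went the other way. Pycard was read at 940 and 908 CPM in the lowest bin and 92.3 and 64.1 CPM in the highest (log2 fold change -3.51), and Nlrp6 at 178 and 168 against 68.3 and 22.5 CPM (-2.03). Both passed under all 13 alternatives, including the landmarks without Reg genes (-2.23 and -0.95). Casp1 fell as well (288 and 236 to 121 and 60.6 CPM, log2 fold change -1.53), and like Il18 did not pass without Reg landmarks (-0.48, edgeR adjusted p = 0.250) or without the library block (-1.48, adjusted p = 0.0719). Naip5, a sensor of bacterial flagellin, rose (18.0 and 22.5 to 50.4 and 68.4 CPM), but did not pass with cells thinned to 1000 UMIs (0.76, edgeR adjusted p = 0.17) or without Reg landmarks (0.74, adjusted p = 0.10). Of 17 testable genes of the list 7 rose and 3 fell, 58.8% against 48.0% of all genes. Those that rose were the sensor genes Nlrc4, Naip1, Naip2, Naip5 and Naip6, with Irak2 and Traf6. Nlrp6 was the only sensor gene among the 3 that fell.

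Other genes of the lists rose toward the upper villus with Il15. Among them were the kinase gene Jak2 (40.5 and 74.3 to 159 and 258 CPM), the feedback inhibitor gene Socs3 (log2 fold change 2.68), and Tnfsf13b, which encodes the B cell factor BAFF (2.44). Of 14 testable JAK-STAT and survival genes, 8 rose and 1 fell, 64.3% against 48.0% of all genes. Jak2 did not pass within Malat1-poor cells (0.49, edgeR adjusted p = 0.0838). The chemokine genes Ccl28 (-3.33) and Ccl20 (-2.89) and the cytokine gene Mif (-2.69) fell. Without Reg landmarks Ccl20 did not pass.

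On the receptor side, T or NK cell-like cells were gated by T cell receptor, CD4 and CD8 UMIs into gamma-delta (308 and 290 cells), CD8 alpha-beta (161 and 120), CD8 alpha-alpha (800 and 313) and CD4 cells (28 and 17), with 942 and 648 ungated. A cell passes the CD8 alpha-alpha gate partly by having no Cd8b1 UMI, which a shallow cell also lacks. The gamma-delta gate asked for a Trdc UMI and no Trac UMI. When Trbc1 and Trbc2 UMIs were also barred, 68 and 88 gamma-delta cells stayed. Most cells of the main gamma-delta gate thus held a UMI of a T cell receptor beta constant gene. Il2rb and Il7r divided these subsets in opposite ways. Il2rb stood at 453 and 393 CPM in CD8 alpha-alpha, 415 and 248 in gamma-delta, 139 and 53.7 in CD4 and 86.1 and 100.8 in CD8 alpha-beta cells. Il7r stood at 12.3 and 25.7 CPM in CD8 alpha-alpha, 34.8 and 124 in gamma-delta, 312 and 216 in CD8 alpha-beta and 782 and 343 in CD4 cells. The CD8 alpha-alpha and CD8 alpha-beta libraries do not overlap for either gene, and the lowest 2 subsets for Il2rb are the highest 2 for Il7r.

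Against the other gated subsets, Il2rb had a log2 fold change of 0.92 (SE 0.09, edgeR adjusted p = 3.87e-22) in CD8 alpha-alpha and -1.95 (SE 0.18, edgeR adjusted p = 3.18e-24) in CD8 alpha-beta cells. Il7r had -3.39 (SE 0.15, edgeR adjusted p = 1.04e-103) and 2.41 (SE 0.16, edgeR adjusted p = 2.14e-49). Each subset is part of the reference of the others. Of all genes tested, 6.90% passed for CD8 alpha-alpha, 9.65% for CD8 alpha-beta and 9.73% for gamma-delta cells. Without the library block, Il2rb in CD8 alpha-alpha cells was not past the threshold (0.91, adjusted p = 0.491), where 6 genes in all passed, and with DESeq2 Il7r in CD8 alpha-beta cells was not (2.37, adjusted p = 0.0808).

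Neither gene passed in gamma-delta cells. The log2 fold change there was -0.14 for Il2rb (95% interval -0.34 to 0.07) and -0.35 for Il7r (-0.62 to -0.08, edgeR adjusted p = 0.0856). Il2rb passed as lower when the Mcpt1-led cluster was added (-0.44, edgeR adjusted p = 0.000188) or with stricter receptor gates (-0.54, adjusted p = 0.0481). The common gamma chain Il2rg was nearly even: 145 and 164 CPM in gamma-delta, 180.5 and 181 in CD8 alpha-alpha, 207 and 190 in CD8 alpha-beta and 219 and 247 in CD4 cells. It was lower in gamma-delta cells (-0.37, SE 0.11, edgeR adjusted p = 0.0145), a call lost under 4 alternatives, and passed in neither CD8 subset.

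Within a gate, the levels of Il2rb and Il7r differed between clusters, which is given as a description. Gamma-delta cells of the cluster led by Cd7, Gzma and Gzmb (cluster 1) had Il2rb at 617 and 610 CPM and Il7r at 3.19 and 0 CPM. Those of the cluster led by Gzmk, Trdc and Lat (cluster 8) had Il2rb at 88.9 and 105 CPM and Il7r at 91.6 and 167 CPM. CD8 alpha-alpha cells of cluster 1 had Il2rb at 470 and 434 CPM, and the 28 and 28 cells of that gate in the cluster led by Cd6, Ms4a4b and Cd8b1 (cluster 10) had 52.0 and 33.6 CPM with Il7r at 354 and 292 CPM. Gamma-delta cells fell in cluster 1 for 112 of 308 cells in control 1 and for 28 of 290 in control 2. Beside that lower share in control 2, their Il2rb level was lower there (415 and 248 CPM) and their Il7r level higher (34.8 and 124 CPM).

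**Figure D4:**
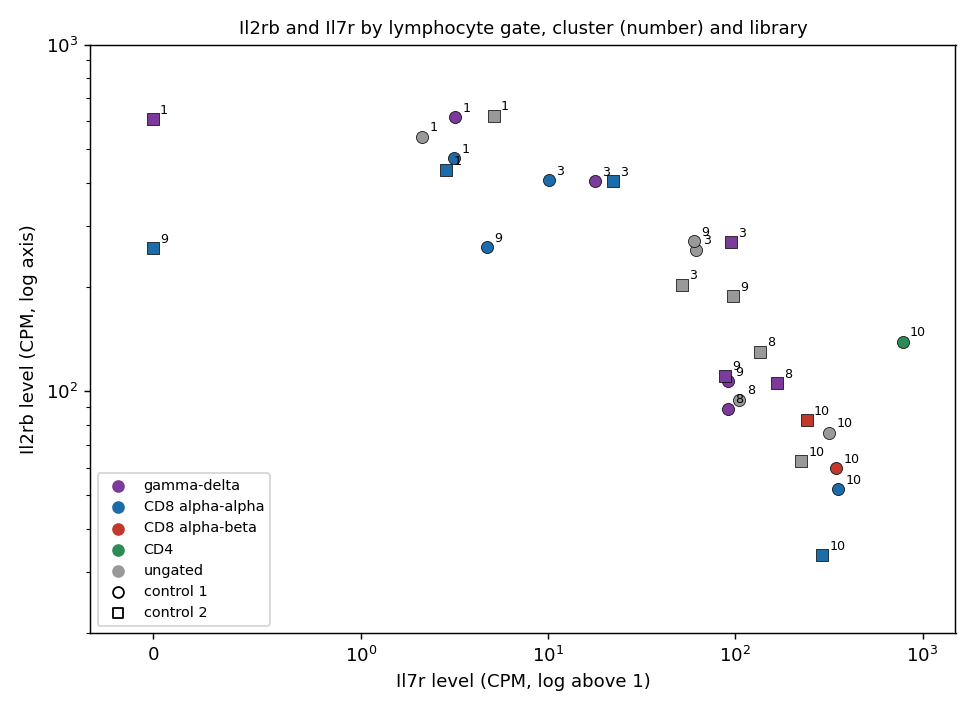
Il2rb level (y axis, CPM, logarithmic) against Il7r level (x axis, CPM, logarithmic above 1) for each combination of lymphocyte gate (colour), cluster (number beside the point) and library (circle, control 1; square, control 2) with at least 20 cells. Cluster 1 points lie at 434 to 624 CPM of Il2rb with at most 5.13 CPM of Il7r, and cluster 10 points at 33.6 to 139 CPM of Il2rb with 225 to 782 CPM of Il7r.

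Single cells at equal depth gave a description of both genes together. Of T or NK cell-like cells thinned to 2000 UMIs, 16.3% and 13.2% of those with an Il7r UMI held an Il2rb UMI, against 47.5% and 38.1% of those without. The exact binomial 95% intervals were 10.9% to 22.9% and 8.04% to 20.1% with Il7r, and 45.2% to 49.9% and 35.0% to 41.3% without, and they cover counting error only. Both genes were read in 26 of 1928 and 18 of 1072 cells. For Il2rb and Il2rg the shares were near each other, at 46.1% and 32.4% of cells with Il2rg against 44.5% and 36.1% of cells without.

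IL-18 receptor genes were read in few lymphocytes, and mostly in cluster 10, which held all the CD4 cells. CD4 cells of control 1 held 29 Il18r1 and 16 Il18rap UMIs in 28 cells, and those of control 2 held 4 and 1 in 17 cells. The levels were 212 and 42.9 CPM for Il18r1 and 117 and 10.7 CPM for Il18rap. CD8 alpha-alpha cells held 0 and 1 Il18r1 UMIs in 800 and 313 cells and 6 and 4 Il18rap UMIs. Both genes passed as lower in CD8 alpha-alpha cells with edgeR's test (Il18r1 adjusted p = 1.34e-14, Il18rap adjusted p = 5.13e-06), where 29 of the 33 Il18r1 UMIs on the other side in control 1 were those of the CD4 cells. Neither passed without the library block (adjusted p = 0.173 and 0.293), and Il18rap did not with DESeq2 (adjusted p = 0.995). In control 2 the largest pool was 57 Il18r1 UMIs in 100 ungated cells of cluster 10. Across cluster 10 as a whole the levels were 27.7 and 66.6 CPM for Il18r1 and 22.0 and 24.0 CPM for Il18rap, while cluster 1 stood at 0.744 and 0.381 CPM for Il18r1.

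The unnamed Mcpt1-led cluster also carried both IL-18 receptor chains, with Il18r1 at 20.4 and 30.7 CPM and Il18rap at 14.6 and 14.1 CPM. Of all UMIs in the kept cells, this cluster held 28.2% and 28.5% for Il18r1 and 28.4% and 33.3% for Il18rap. Within it they came mainly from ungated cells, which held 24 and 27 of 35 and 37 Il18r1 UMIs. At 2000 UMIs per cell, 3 of 14 and 5 of 9 lymphocytes of the T or NK cell-like class with an Il18rap UMI also held Il18r1, against 7 of 1914 and 10 of 1063 cells without.

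Signalling genes differed between the subsets together with the receptors. In CD8 alpha-beta cells, 5 of 16 testable JAK-STAT and survival genes were lower and 2 higher, 43.8% against 9.65% of all genes. The lower ones included Bcl2 (585 and 627 against 1744 and 1433 CPM, log2 fold change -1.32), the kinase gene Pim1 (-1.33) and the STAT5 target Socs2 (-2.13). Il2ra, the alpha chain that gives the IL-2 receptor high affinity, was higher there (23.9 and 14.0 against 1.5 and 6.06 CPM, 2.67). In CD8 alpha-alpha cells 4 of the 16 were higher and 2 lower (37.5% against 6.90% of all genes), with Socs2 at 1.23 and Cish, another STAT5 target, at -1.19. Bcl2 and Pim1 in CD8 alpha-beta cells passed without the library block and with DESeq2, though not with every cell thinned to 1000 UMIs. Il2ra in CD8 alpha-beta cells and Socs2 in CD8 alpha-alpha cells passed neither without the block nor with DESeq2. Socs2 in CD8 alpha-beta cells did not pass with DESeq2, and Cish in CD8 alpha-alpha cells did not pass without the block.

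Il15ra in lymphocytes was spread over all gates. It stood at 34.0 and 47.2 CPM in gamma-delta, 35.9 and 29.4 in CD8 alpha-beta, 36.5 and 21.5 in CD4 and 20.2 and 28.9 in CD8 alpha-alpha cells. It was lower in CD8 alpha-alpha cells (-0.62, SE 0.20, edgeR adjusted p = 0.0328), a call lost under 7 of the alternatives.

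Outside lymphocytes and epithelium, Il7r was highest in plasmacytoid dendritic cell-like cells, at 275 and 236 CPM (84 and 29 UMIs in 28 and 11 cells), with Il2rb at 0 in both libraries. Il2rg was read in these (108 and 97.7 CPM), in B or plasma cell-like (68.5 and 113 CPM) and in myeloid-like cells (76.7 and 46.7 CPM). Il15 in myeloid-like cells was at 19.5 and 21.8 CPM and Il18 at 51.1 and 34.2 CPM.

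The genes most like each member were taken by the correlation of log2(CPM + 1) over 20 points, 10 classes and gated subsets in 2 libraries, which share cells, since the gates lie within the lymphocyte class, and depth. Il18 ran with Plac8, Sord and Lap3 (Pearson r 0.96, 0.96 and 0.96), and Il15 with Anpep, Cyp4b1 and Emp1 (0.89, 0.88 and 0.87). Il2rb ran with Cd200r2, Cd96 and Cd7 (0.97 each), Il2rg with Fli1, Pde4b and Ifi203 (0.99 each), and Il7r with Thy1, Dzip1 and Ubash3a (0.98, 0.96 and 0.95). Il18rap ran with Rab29, Pianp and Ank2 (0.93, 0.93 and 0.93), Il15ra with Rnf14, Ankrd16 and Eya3 (0.95, 0.94 and 0.94), and Il7 with Parp16, Atg13 and Abcb1a (0.95, 0.92 and 0.92). Classes and subsets under 20 cells in either library are not among the points, which leaves out the enteroendocrine-like and CD4 cells in which Il18r1 was highest. Over these points Il18r1 had the weakest likeness, to Gm2682, Lef1 and Thy1 (0.83, 0.80 and 0.76), and Thy1 was the only gene named for 2 of the 9.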

How the data were processed

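The 2 control libraries of single cells from mouse proximal small intestine were the material. The deposited matrices hold UMI counts per gene and cell that the authors made with Cell Ranger 7.1.0, per the file headers; versions 6.1 and 7.1.0 and the GRCm38 (mm10) build are named in the submitters' processing notes. Whether intronic reads entered the counts is not stated in any source used. The 9 genes and the gene lists were chosen with earlier results of these data known.

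Cells with at least 500 genes and under 25% mitochondrial UMIs were kept, and cells called as doublets by Scrublet (expected rate 0.06) were removed. With scanpy 1.11.5, cells were clustered (2000 variable genes, 40 components, 15 neighbours, Leiden resolution 1.0) with the 9 genes, the listed genes, mitochondrial and ribosomal genes left out, and clusters were named from marker lists. Lymphocytes were gated on T cell receptor, CD4 and CD8 UMIs. Enterocyte-like cells were placed by 17 landmark genes as the upper share of summed relative landmark levels. Because cells are not replicates, counts were summed per library and class, level is given as CPM of the summed counts, and the sums were tested with edgeR 4.0.16 (quasi-likelihood F test, TMM scaling, filterByExpr, library as block; R 4.3.3). Both sides of a comparison come from the same suspension, which is where the pairing comes from. P-values were adjusted by Benjamini-Hochberg over all tested genes not used to cluster, name, gate or place cells, with a threshold of 0.05. The SE of a log2 fold change was taken from the F statistic, and each fit has few residual degrees of freedom before the spread is shared across genes. With library as block, p-values measure how well the difference between the 2 sides repeated in these 2 libraries, not the spread between libraries. The labels do not say whether the libraries are separate animals, so this repeat may be technical.

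In each comparison and list, up to 4 genes were eligible to be named with their values: those past the threshold with the largest absolute log2 fold change and at least 10 UMIs in each library on the higher side. Genes most like a member were the 3 with the highest Pearson correlation. Alternatives were scaling by total UMIs, no filter on low counts, no block, DESeq2 1.42.0, under 10% mitochondrial UMIs, cells thinned to 1000 UMIs, removal of cells in the top 6% by doublet score, Leiden resolution 0.5, other gates, other landmarks and each library alone. The test of enteroendocrine-like cells, the addition of the Mcpt1-led cluster and the splits by Malat1 were chosen after seeing the data. On simulated counts the fit was checked for recovery of known changes. Promoter windows came from a RefSeq table (GRCm38.p6) that held 6 of the 9 genes; Il15, Il7 and Il2rb are named only. The build matches that of the files.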

Additional observations from a re-analysis of the deposited data

How the results depend on the processing

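The 44 values of the 9 genes were recomputed under 412 tested alternatives, of which 370 kept direction and side of the threshold, 27 fell short of it, 8 came past it and 7 changed sign; 3 DESeq2 values without an adjusted p were left out. Among the main results, Il7 in lymphocytes fell short with DESeq2 (1.02) and with cells thinned to 1000 UMIs (0.59), Il18r1 in lymphocytes with DESeq2 (1.57), and Il7r in CD8 alpha-beta cells with DESeq2 (2.37). Without the replicate block, which drops the library pairing, Il2rb in CD8 alpha-alpha cells (0.91) and Il18 by position (-1.80) fell short, and without Reg genes among the landmarks Il18 by position did (-0.57). Without it 6 further values also fell short: Il15 in goblet-like (-2.02) and enteroendocrine-like cells (-1.40), Il2rg in gamma-delta cells (-0.36), and Il15ra (-0.61), Il18r1 (-5.64) and Il18rap (-2.44) in CD8 alpha-alpha cells. It changed no other call among the 44. The cause was not tested. None of the 7 sign changes concerned a called value. They were Il15ra in enterocyte-like cells with total-UMI scaling (-0.15) and thinning (-0.26), Il15ra in progenitor-like cells with the same 2 settings (0.116 and 0.0862), Il7 in enterocyte-like cells with Malat1-rich clusters only (-0.45), Il2rg in CD8 alpha-alpha cells with stricter gates (-0.0116), and Il15ra by position without Apoa4 (0.25).

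Lymphocytes were also set against epithelium from 1 library at a time, with no test. The value was the log2 ratio of levels + 1, with CPM taken over TMM-scaled totals rather than the plain totals used for CPM elsewhere. It ran from -5.00 to -4.02 for Il15, 0.86 to 0.93 for Il15ra, -5.05 to -4.84 for Il18 and 0.57 to 1.26 for Il7. For the receptors it ran from 4.54 to 4.55 for Il2rb, 4.73 to 4.81 for Il2rg, 0.47 to 2.03 for Il18r1, 1.56 to 2.25 for Il18rap and 4.65 to 4.66 for Il7r.

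Counts over all genes moved more. Upper against lower enterocytes, 3990 genes passed, against 911 in Malat1-poor clusters only, 1168 thinned, 1280 without the block, 1616 without Reg landmarks, 1762 under 10% mitochondrial UMIs, 2119 with DESeq2 and 2398 with 3 bins. The gated subsets gave 905 (gamma-delta), 901 (CD8 alpha-beta) and 658 (CD8 alpha-alpha). With DESeq2 these were 173, 169 and 57, thinned 428, 62 and 109, and without the block 0, 177 and 6 with edgeR, where the gamma-delta comparison had 395 genes at an unadjusted p under 0.05. Stricter gates gave 1905 for gamma-delta and 586 for CD8 alpha-beta, gates on deeper cells 527 and the Mcpt1-led cluster 1484 for gamma-delta. For the classes, 6400 enterocyte calls became 3950 thinned, 6847 progenitor calls 3918 thinned and 4527 with DESeq2, 5541 goblet calls 3658 with DESeq2, and 4464 enteroendocrine calls 955 thinned and 2842 with DESeq2.

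Scaling by total UMIs moved the median log2 fold change over all genes by 0.70 for lymphocytes, -0.47 for enterocyte-like, 0.48 for progenitor-like, -0.30 for goblet-like and 0.66 for enteroendocrine-like cells. The split of higher to lower calls went from 5066 and 4839 to 7338 and 3459 in lymphocytes, from 3410 and 2990 to 2096 and 4604 in enterocyte-like, from 3442 and 3405 to 5159 and 2090 in progenitor-like, from 2631 and 2910 to 1953 and 4016 in goblet-like and from 1946 and 2518 to 3387 and 1325 in enteroendocrine-like cells. For the subsets it went from 285 and 620 to 442 and 236 (gamma-delta), from 419 and 482 to 332 and 587 (CD8 alpha-beta) and from 381 and 277 to 296 and 349 (CD8 alpha-alpha). No gene of the 9 changed direction in lymphocytes against epithelium. Counts in lymphocytes were low for Il7 (108 and 62 UMIs), Il18r1 (41 and 74), Il18rap (44 and 33) and Il15 (43 and 11), which limits their precision there.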
